A study of Mus musculus with 6 samples.

Results

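The genes described here are the microRNA gene Mir99a, 8 genes of the let-7 family and the host transcript Mir99ahg, as measured in small RNA libraries of newborn mouse hearts lacking the RNA editing enzyme ADAR2 and of their wild-type siblings. They were taken by name and Ensembl identifier, and all 10 were found among the 10065 genes listed. The 8 let-7 genes are Mirlet7a-1, Mirlet7a-2, Mirlet7b, Mirlet7c-1, Mirlet7c-2, Mirlet7e, Mirlet7g and Mirlet7i.

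Whole hearts of female SV129 mice at postnatal day 6 were used. The ADAR2-/- group (Adarb1-/-) and the wild-type group (Adarb1+/+) had 3 samples each, called biological replicates in the study. By the extraction protocol mice of both groups carried Gria2R/R, a glutamate receptor gene that encodes the edited form from the start and rescues the early death of ADAR2-deficient mice. The deletion was not limited to the heart. The value used for each gene is 1 mean normalized count over all 6 samples, which pools the genotypes. No value per animal or per genotype was used here, so no error, no test and no comparison of genotypes is given, and every ratio below is a description.

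let-7 and miR-99a are small RNAs that are cut from hairpins in longer primary transcripts, first by Drosha in the nucleus and then by Dicer in the cytoplasm. A mature miRNA guides an Argonaute protein to mRNAs that pair with its seed, a short stretch near its 5′ end. let-7 is known for its rise as tissues differentiate and for a loop with LIN28, an RNA-binding protein that blocks let-7 maturation and is itself a let-7 target. Several let-7 genes lie in clusters with a gene of the miR-99/miR-100 family and a gene of the miR-125 family, an arrangement that is conserved in animals. ADAR2 converts adenosine to inosine in double-stranded RNA, and the hairpins of primary miRNAs are among the known substrates of such enzymes.

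The mature sequences show which of these genes short reads can tell apart. RefSeq (GRCm38.p6) held a mature sequence for 9 of the 10 genes, all but the host transcript, with let-7a-5p listed under Mirlet7a-1 and found by its letters in the hairpin of Mirlet7a-2. The 5′ arms of the members are printed 5′ to 3′ with the seed, bases 2 to 8, in capitals, followed by those of let-7d and let-7f from neighbouring genes.
let-7a-5p: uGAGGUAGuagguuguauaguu
let-7c-5p: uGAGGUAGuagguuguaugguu
let-7b-5p: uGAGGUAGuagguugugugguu
let-7e-5p: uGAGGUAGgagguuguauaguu
let-7g-5p: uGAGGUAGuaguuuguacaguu
let-7i-5p: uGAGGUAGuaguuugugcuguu
let-7d-5p: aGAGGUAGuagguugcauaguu
let-7f-5p: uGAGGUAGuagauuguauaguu
miR-99a-5p: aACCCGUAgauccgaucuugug

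All let-7 5′ arms shown have the seed GAGGUAG, whereas miR-99a has ACCCGUA, which it shares with miR-100 and miR-99b. Counted from 1 at the 5′ end with the let-7a base first, let-7c differs from let-7a by A19G, let-7e by U9G and let-7f by G12A. let-7b differs from it by A17G and A19G, let-7g by G12U and U18C, and let-7i by 4 substitutions. miR-100-5p differs from miR-99a-5p by U16A alone. Reads of let-7a are thus told from those of let-7c, let-7e or let-7f by a single base. Mirlet7c-1 and Mirlet7c-2 hold the same 5′ arm, as do Mirlet7a-1 and Mirlet7a-2, whose hairpins share a stretch of 23 bases around it in either pair. The 3′ arms are printed because they separate some of these copies and not others.
let-7c-1-3p: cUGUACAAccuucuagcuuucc
let-7c-2-3p: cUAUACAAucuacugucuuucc
let-7a-1-3p: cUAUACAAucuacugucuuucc
let-7a-2-3p: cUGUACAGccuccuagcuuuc

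The 3′ arm of Mirlet7c-2 has the same letters as that of Mirlet7a-1, a gene on another chromosome with another 5′ arm. Their hairpins share 26 bases there, uaacuauacaaucuacugucuuuccu. The 3′ arm of Mirlet7c-1 differs from that of Mirlet7c-2 and can tell the let-7c genes apart. Read counts per arm were not analysed here, so the part of each value that came from either arm is unknown.

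The series as a whole set the scale. Its means ran from 1.09 to 4563, with a median of 6.65 over all genes and 7.64 over the 134 miRNA genes, and 2.55% of the summed means lay on miRNA genes. The methods state only a minimum number of reads per sample, so the depth of each library is not known. Of 12 cardiomyocyte markers 9 were listed, while Tnni3, Myl7 and Nppa were not, and both liver markers were not listed either. Myh7 (943) and Myh6 (425) had the highest means of these markers, but both genes hold a miR-208 hairpin. The other listed cardiomyocyte markers ran from 3.99 for Myl2 to 82.9 for Ttn. Beside them, markers of endothelium (4 of 4 listed, up to 11.6 for Pecam1), fibroblasts (4 of 5, up to 44.8 for Col3a1) and red blood cells (4 of 5, up to 4.85 for Hba-a2) were listed. Macrophages had 2 of 4 markers listed, skeletal muscle 1 of 3 and smooth muscle 0 of 3. In whole hearts fewer cells of a type and less RNA per cell cannot be told apart. Adarb1, the deleted gene, had a pooled mean of 16.6, which does not check the labels because it averages both genotypes.

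Mir99a had the highest level of the 9 hairpin genes, and Mirlet7e the lowest. The mean normalized count of Mir99a was 200 (199.6), that of Mirlet7c-1 77.2 and that of Mirlet7c-2 70.3. The let-7a genes followed with 52.5 for Mirlet7a-2 and 51.1 for Mirlet7a-1, and then Mirlet7i with 44.9 and Mirlet7b with 42.4. Mirlet7g had 21.9 and Mirlet7e 6.08. Divided by the length of the hairpin, the levels were 307 counts per 100 bases for Mir99a, 82.1 for Mirlet7c-1, 74.0 for Mirlet7c-2, 54.7 for Mirlet7a-2, 54.4 for Mirlet7a-1, 52.9 for Mirlet7i, 49.9 for Mirlet7b, 24.9 for Mirlet7g and 6.54 for Mirlet7e. The order was the same on both scales. Mature arms of these genes have 21 or 22 bases, while their hairpins have 65 to 96. Division by hairpin length is thus a description and need not correct counts of mature miRNA. Whether neighbours in it differ could not be judged, since the spread between animals is unknown, and the let-7a genes in particular were within 1.03-fold of each other.

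**Figure D1:**
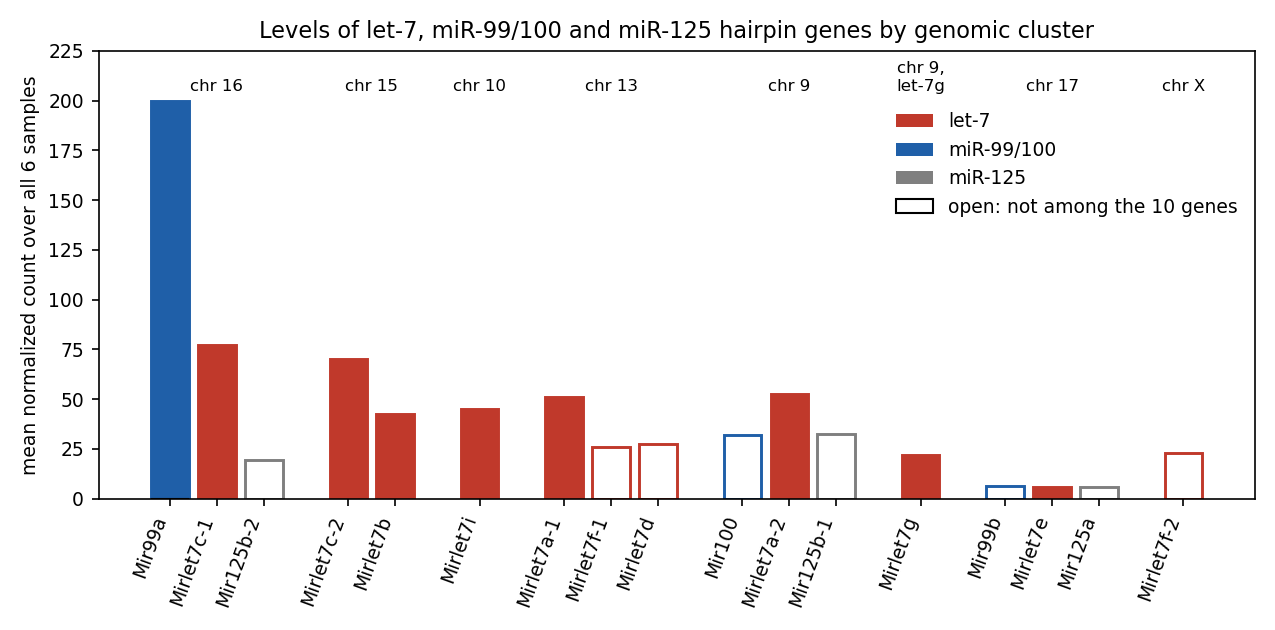
Bars give the mean normalized count over all 6 samples (y axis, linear from 0, no error available) for let-7 genes in red, miR-99/100 genes in blue and miR-125 genes in grey, grouped by genomic cluster, with open bars for genes outside the 10 described. Mir99a at 199.6 stands above every let-7 bar, and the 3 bars of the chromosome 17 cluster lie between 6.04 and 6.37.

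Among the 134 miRNA genes Mir99a had rank 6 by its mean. Next above it were Mir143 (289), a miRNA of vascular smooth muscle, and Mir208a (413), which lies in the cardiac myosin gene Myh6. Next below were Mir22 (156) and Mir1a-2 (91.2), a muscle miRNA with which Mir1b shared its value. Per base of hairpin, Mir99a kept rank 6. The let-7 members had ranks 13 (Mirlet7c-1), 16 (Mirlet7c-2), 19 and 20 (Mirlet7a-2 and Mirlet7a-1), 21 (Mirlet7i), 22 (Mirlet7b), 35 (Mirlet7g) and 72 (Mirlet7e). Of the 9 hairpin genes 8 lay above the median of all miRNA genes, Mirlet7e being the exception. Together they made up 10.3% of the summed miRNA means, of which Mir99a alone gave 3.65%. All 11 let-7 genes listed, with Mirlet7d (27.7), Mirlet7f-1 (25.8) and Mirlet7f-2 (22.7) added, made up 8.09%, although reads that fit several copies may be counted in more than 1 of them. The sum over miRNA genes holds both genes of antisense pairs with equal means, such as Mir126a and Mir126b (675 each). These percentages are therefore lower than with such means counted once.

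**Figure D2:**
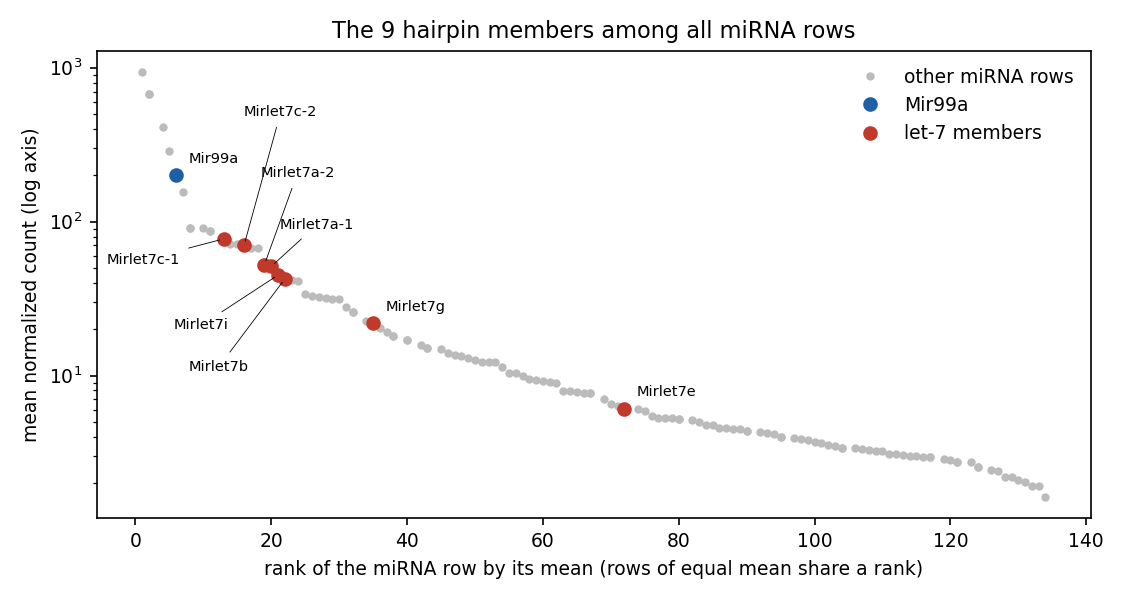
Each point is 1 of the 134 miRNA genes, with its rank on the x axis and its mean normalized count on the y axis (log axis). Mir99a (blue) has rank 6, 7 of the 8 let-7 members (red) lie between ranks 13 and 35, and Mirlet7e has rank 72.

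On chromosome 16 Mir99a (ENSMUSG00000065530, GRCm38 77598936 to 77599000, plus strand) lies 656 bases upstream of Mirlet7c-1 (ENSMUSG00000065557, 77599657 to 77599750). Both lie in introns of Mir99ahg, a long noncoding host transcript (ENSMUSG00000090386, 77236317 to 77773427), as does Mir125b-2, which follows 46522 bases after Mirlet7c-1. The rows of these 3 hairpins differed widely in level. Mirlet7c-1 shares its 5′ arm with Mirlet7c-2 on chromosome 15, and Mir125b-2 shares its own with Mir125b-1 on chromosome 9. Whether the ratios below are specific to this locus was not tested. Mir99a was 2.59-fold above Mirlet7c-1 in mean normalized count and 3.74-fold above it per base of hairpin. Mirlet7c-1 was in turn 4.01-fold above Mir125b-2 (mean 19.3), or 3.03-fold per base. Between Mir99a and Mir125b-2 the ratio was 10.4 in mean normalized count and 11.3 per base, the largest among the 13 pairs of cluster mates examined.

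The other clusters with a miR-99 or miR-100 gene had smaller ratios. On chromosome 9 Mir100, Mirlet7a-2 (ENSMUSG00000092770, 41536716 to 41536811, plus strand) and Mir125b-1 lie in the same order within the noncoding gene 3110039I08Rik. There the let-7 gene had the highest mean of the cluster, 52.5 against 31.9 for Mir100 and 32.6 for Mir125b-1. Per 100 bases the values were 54.7 for Mirlet7a-2, 39.8 for Mir100 and 42.4 for Mir125b-1, so the order was the same. On chromosome 17 Mir99b, Mirlet7e (ENSMUSG00000105758, 17830352 to 17830444, plus strand) and Mir125a lie inside Spaca6. Their means were 6.37, 6.08 and 6.04, in the order of the chromosome 16 cluster but at most 1.05-fold apart. Per 100 bases of hairpin they were 9.10, 6.54 and 8.88, with Mirlet7e the lowest. Thus the gene of the miR-99/miR-100 family stood at 2.59, 0.607 and 1.05 times its let-7 mate in mean normalized count in the 3 clusters. Per base it stood at 3.74, 0.728 and 1.39 times. The chromosome 17 means lay below the median of all miRNA genes (7.64). Mirlet7c-1 and Mirlet7a-2 share their 5′ arms with genes at other loci, so their ratios may not be specific to a locus.

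In clusters made of let-7 genes alone, a let-7c or let-7a gene had the highest mean. On chromosome 15 Mirlet7c-2 (ENSMUSG00000065608, 85706603 to 85706697, plus strand) and Mirlet7b (ENSMUSG00000065564, 85707319 to 85707403) are 621 bases apart. Mirlet7c-2 was 1.66-fold above Mirlet7b in mean normalized count and 1.48-fold per base. On chromosome 13 Mirlet7a-1 (ENSMUSG00000065421, 48538179 to 48538272, minus strand) is followed by Mirlet7f-1 and Mirlet7d. Mirlet7a-1 was 1.98-fold above Mirlet7f-1 and 1.85-fold above Mirlet7d, or 1.88-fold and 2.02-fold per base. Mirlet7f-1 and Mirlet7d were within 1.08-fold of each other, and the order of this pair turned when hairpin length was taken into account. Mirlet7i on chromosome 10 (ENSMUSG00000065406, 122985640 to 122985724, minus strand) and Mirlet7g on chromosome 9 (ENSMUSG00000065440, 106178840 to 106178927, plus strand) had no let-7 mate.

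The let-7 genes at different loci with the same 5′ arm lay within 1.13-fold of each other, as did 5 of the 13 pairs of cluster mates. The ratio of Mirlet7a-2 to Mirlet7a-1 was 1.03, that of Mirlet7c-1 to Mirlet7c-2 was 1.10 and that of Mirlet7f-1 to Mirlet7f-2 was 1.13, all in mean normalized count. Per base these ratios were 1.01, 1.11 and 1.06. Mir125b-1 and Mir125b-2 were the exception, with a ratio of 1.69, or 1.56 per base. Mirlet7c-2 and Mirlet7a-1, which share their 3′ arm, had a ratio of 1.37, or 1.36 per base. A read of a shared arm fits both genes, so the 2 rows of such a pair may hold the same reads and may not be independent. The part of multiply matching reads in these ratios was not tested, because their treatment is not given in the sources used here.

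**Figure D3:**
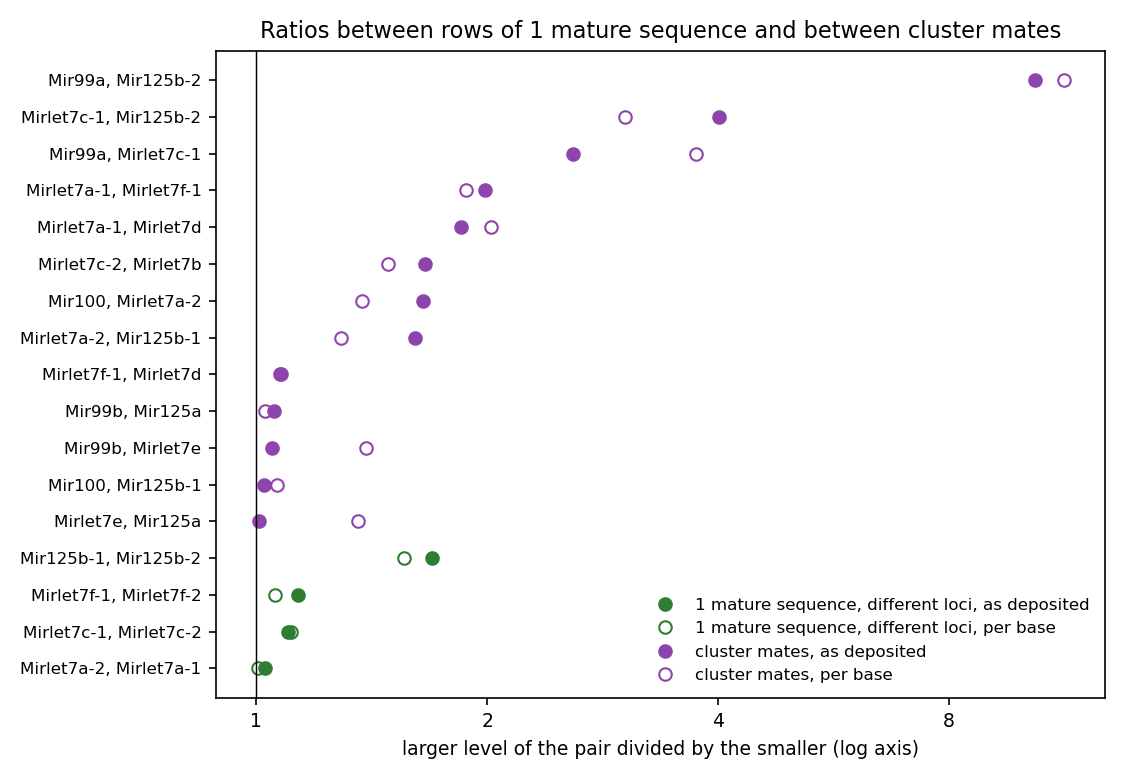
For each pair of genes the larger level was divided by the smaller (x axis, log axis), with filled points for mean normalized counts and open points for levels per base of hairpin. The let-7a, let-7c and let-7f pairs with a shared 5′ arm (green) lie between 1.01 and 1.13. The pair of Mir125b-1 and Mir125b-2, also green, lies at 1.69, or 1.56 per base. Cluster mates (purple) run from 1.01 to 11.3.

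Other miRNA genes of the series were set beside these pairs. Over all 5 pairs of the let-7, miR-99 and miR-125 genes that share a whole mature arm, the median ratio of mean normalized counts was 1.13 (range 1.03 to 1.69). Over 9 such pairs of other miRNA genes it was 1.14 (range 1.06 to 1.47). For neighbours on the same strand at most 10000 bases apart with no shared arm, the median was 1.65 over 9 pairs of the let-7, miR-99 and miR-125 genes (range 1.01 to 2.59). It was 1.91 over 26 pairs with at least 1 gene outside these families (range 1.16 to 9.54). Some of these pairs hold Mir351, which was grouped with the miR-125 genes. Per base of hairpin these medians were 1.11, 1.34, 1.39 and 1.98 in the same sequence. Only genes with a mature sequence under their name in the RefSeq set used were paired, so these medians and ranges do not cover every such pair. Mir1a-1 and Mir1a-2 (means 90.5 and 91.2), for example, were left out. The limit of 10000 bases also left out the cluster mates described above that lie farther apart. With Mir125b-2 the larger-over-smaller ratio was 10.4 for Mir99a and 4.01 for Mirlet7c-1. With Mir125b-1 it was 1.61 for Mirlet7a-2 and 1.02 for Mir100. Pairs share genes and the difference was not tested.

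Mir99ahg was the member with the highest mean, 334, but its 14303 exon bases made this 2.34 counts per 100 bases, against 307 for Mir99a. The 3 hairpins inside it had a summed mean of 296, which is 88.5% of the Mir99ahg value and leaves 38.4. In GENCODE M21 none of the 3 hairpins overlaps an exon of Mir99ahg. The same region of the opposite strand carries Gm11146, annotated as protein-coding, whose span covers Mir99a and Mirlet7c-1. Its mean was 278, and the summed mean of both hairpins was 277, or 99.7% of it. Its merged exons of 96 bases do not overlap either hairpin. The value of Mir99ahg cannot be read as the level of that transcript apart from its miRNAs, and the value of Gm11146 cannot be told apart from theirs.

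Other rows at the let-7 loci were close to their hairpins as well. Gm24111, on the strand opposite to Mirlet7f-1, and Gm25927, opposite to Mirlet7e, had exactly the means of these genes. Over the whole table all 14 pairs of miRNA genes that overlap on opposite strands had equal means, so values of such genes do not separate the strands. For Mirlet7e the mean of 6.08 can thus belong to either strand. Wdr82, a gene for a histone methyltransferase subunit that holds Mirlet7g in an intron, had a mean of 23.4, and the 21.9 of Mirlet7g equalled 93.5% of it. For 3110039I08Rik (149) the summed mean of Mir100, Mirlet7a-2 and Mir125b-1 equalled 78.8%. Huwe1, a ubiquitin ligase gene around Mirlet7f-2, had a mean of 31.6, and that of the hairpin equalled 71.9% of it.

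At a pair of loci the sum of the hairpins exceeded the longer gene. The noncoding gene 6720427I07Rik overlaps Mirlet7a-1, Mirlet7f-1 and Mirlet7d with its exons in GENCODE M21, but its mean was 28.0 against a sum of 105. That value is close to the 27.7 of Mirlet7d alone. Spaca6 had a mean of 6.93 against a sum of 18.5 for its 3 hairpins, of which Mir125a (6.04) is the only one that touches an exon of it. The gene models the authors counted on are not given in the sources used here and may differ from these.

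**Figure D4:**
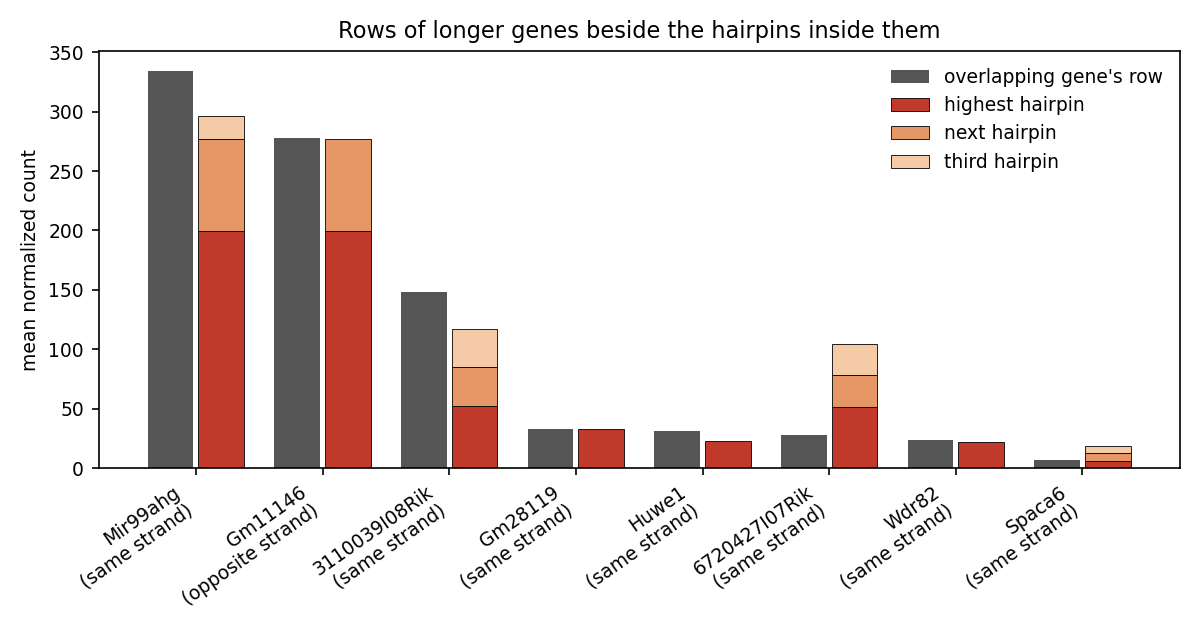
For each longer gene that overlaps a let-7 cluster hairpin, the grey bar gives its own mean normalized count and the stacked bar the means of the hairpins inside it (y axis, linear from 0). The stacks reach 88.5% of Mir99ahg and 99.7% of Gm11146, and exceed the rows of 6720427I07Rik and Spaca6.

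Genes of the let-7 pathway were listed as reads on longer genes. Of 18 genes for let-7 processing 11 were listed, with means from 1.89 for Lin28b, the brake on let-7 maturation, to 42.7 for Dis3l2, an exonuclease that degrades uridylated let-7 precursors. Prkra, a partner of Dicer, had the next highest mean with 25.1. Per 100 exon bases Prkra had 1.24 and Dis3l2 0.48. Drosha (11.7), Ago2 (22.8) and the uridylyl transferase gene Tut4 (8.80) were listed, whereas Dicer1, Dgcr8, Xpo5, Tarbp2, Lin28a, Tut7 and Khsrp were not.

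Of 35 genes known or proposed as let-7 targets, some of which are in the processing list too, 20 were listed with means from 1.89 to 36.4. E2f2, a cell cycle transcription factor gene (36.4), and Igf1r, the receptor gene of insulin-like growth factor 1 (32.1), had the highest means. Per 100 exon bases Fas (0.974), a death receptor gene, and E2f2 (0.745) were highest. Hmga2 (8.44), a chromatin protein gene and classic let-7 target, and Igf2bp1 (12.8) were listed too. Per 100 bases the lowest let-7 member, Mirlet7e (6.54), was above the highest gene of both lists. These libraries hold short RNA, so the values of long genes do not measure mRNA levels. Whether they come from fragments of these RNAs or from small RNAs inside the genes was not tested. The comparison with Mirlet7e therefore does not rank let-7 against these genes. Whether the reads of either list lie in the annotated exons is unknown too, so values per 100 exon bases only restate the means by annotated length.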

How the data were processed

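RNA of whole hearts was extracted and small RNA libraries were made, 3 per genotype. Per the study's methods and the submitters' processing notes, adaptors were removed with cutadapt, reads were mapped with Bowtie and the genotypes were compared with DESeq. The notes name mm9. The methods also describe mapping of clipped reads to mature miRNA sequences with NextGenMap at a minimum identity below full identity, without saying whether this entered the table. The annotation, the counting of overlapping genes and of multiply matching reads, and the use of strand are not given in the sources used here. The only signal used is the deposited mean, for which the authors scaled the read counts of each library by its size factor and pooled all samples. The other 6 measures of the table are the authors' own comparison (log2 fold changes, standard error, statistic and P values) and were not used.

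Ensembl identifiers were looked up in GENCODE M21 (GRCm38), which held 10005 of 10065. Positions, strands and merged exon lengths are from that annotation. Sequences are from RefSeq (GRCm38.p6). Levels per 100 bases, ranks, ratios and longest shared stretches were computed with Python 3.11.15, numpy 2.4.6 and pandas 2.3.3. The search for shared stretches was tested on simulated sequences. The steps for exon overlap, substitutions and the larger-over-smaller ratio were tested on fixed examples, and ranks and levels per 100 bases were not tested. Neighbours were pairs at most 10000 bases apart, and antisense genes of equal means counted once. For the medians over pairs, only miRNA genes with a mature sequence under their name in the RefSeq set used were paired. The members and lists, and the rule for named genes (the members, their families, hosts, listed pathway genes with the 2 highest of each list, and the miRNA genes next in rank), were chosen with earlier results of these data known. The listed pathway genes named beyond the 2 highest, and the genes overlapping the hairpins that no list holds, were chosen after their values were seen. For depth the methods give only a minimum number of reads per sample.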

Additional observations from a re-analysis of the deposited data

How the results depend on the processing

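No paired analysis was possible because only 1 mean over all samples is at hand for each gene, and for the same reason no sample could be left out. The ranks of all 9 hairpin members stayed within 1.5 times when equal means were counted once, when only names starting with Mir were kept, and per base of hairpin, the latter chosen after seeing the data. The rank among genes with a mean of at least 10 gave no value for Mirlet7e, whose mean is below that, and is the same for the other members by its construction. Since no hairpin overlaps a Mir99ahg exon in GENCODE M21, the share of its row could not be limited to exons.

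Per 100 bases the levels were 307 for Mir99a, 82.1 for Mirlet7c-1, 74.0 for Mirlet7c-2, 54.7 for Mirlet7a-2, 54.4 for Mirlet7a-1, 52.9 for Mirlet7i, 49.9 for Mirlet7b, 24.9 for Mirlet7g, 6.54 for Mirlet7e and 2.34 for Mir99ahg. As percent of the summed miRNA means the hairpin members had, in the same order, 3.65, 1.41, 1.28, 0.959, 0.934, 0.821, 0.775, 0.401 and 0.111. That sum holds both genes of antisense pairs with equal means. Division by length turned the order of a pair of cluster mates in 2 cases, Mirlet7e over Mir125a (from 1.01 to 0.737) and Mirlet7f-1 over Mirlet7d (from 0.930 to 1.08). Without a turn it gave 3.74 for Mir99a over Mirlet7c-1, 11.3 for Mir99a over Mir125b-2, 3.03 for Mirlet7c-1 over Mir125b-2, 1.48 for Mirlet7c-2 over Mirlet7b, 1.88 for Mirlet7a-1 over Mirlet7f-1, 2.02 for Mirlet7a-1 over Mirlet7d, 0.728 for Mir100 over Mirlet7a-2, 0.940 for Mir100 over Mir125b-1, 1.29 for Mirlet7a-2 over Mir125b-1, 1.39 for Mir99b over Mirlet7e and 1.02 for Mir99b over Mir125a. For genes with a shared arm it gave 1.11 for Mirlet7c-1 over Mirlet7c-2, 1.01 for Mirlet7a-2 over Mirlet7a-1, 1.06 for Mirlet7f-1 over Mirlet7f-2 and 1.56 for Mir125b-1 over Mir125b-2. These shifts follow from the annotated hairpin lengths, which do not set the length of a mature arm, so a turned order is no result about the miRNAs. Without values per sample, neither the spread between animals nor the number of reads behind any ratio is known.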
